A study of Homo sapiens with 40 samples.

Results

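Genes of glycolysis and of the response to low oxygen were measured in A2058, an established human melanoma cell line, after treatment with inhibitors of phosphoinositide 3-kinase (PI3K). The set held 35 genes chosen by name, and 32 of them were among the 19775 genes with at least 1 probe set of a single symbol. SLC16A1, SLC16A3 and CA9 had none in the annotation used, and 31 members were bright enough to be tested. The 1 left untested, the oxygen sensor gene EGLN3, read 4.5 to 22.3 on all 40 arrays. Where a gene had several probe sets, the brightest over all arrays stood for it, and for HK2 every probe set is described.

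Cultures of A2058 received a single treatment of 24 h. BKM120 (buparlisib), a pyrimidine with morpholine groups that inhibits class I PI3K, was given at IC30, IC50 and IC90 (max). BEZ235 (dactolisib) is an imidazoquinoline that blocks mTOR, a kinase downstream of PI3K, as well as PI3K itself. GDC0941 (pictilisib), also spelled GCD0941 in the labels, is a thienopyrimidine with a morpholine group and inhibits class I PI3K. Both were given at IC50, IC90 and max. DMSO, the solvent, was the control, and the labels give 4 biological replicates for each of the 10 groups. The molar concentrations, and the response to which the IC levels refer, were not given in the sources used here. All groups were 1 cell line in high-glucose medium, and no culture at low oxygen is among the 40 arrays. A value is the scaled signal of a probe set over a whole culture, so a change in every cell and a change in a share of the cells cannot be told apart.

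Glycolysis converts glucose to pyruvate. Glucose enters through transporters such as GLUT1, is phosphorylated by hexokinases and is committed by phosphofructokinase. The lower enzymes recover ATP, and lactate dehydrogenase turns pyruvate into lactate. Hypoxia-inducible factor (HIF) is a dimer whose alpha subunit is hydroxylated by oxygen-dependent enzymes of the EGLN family and then degraded. When it accumulates it raises transporters, glycolytic enzymes, the vascular growth factor VEGFA and the mitophagy gene BNIP3. PI3K, AKT and mTOR are known to promote glucose uptake and the translation of HIF-1 alpha, and melanoma cells are known for high glycolysis also in oxygen.

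Sequences just before the transcription start are shown for 5 of the members described in most detail, because the HIF dimer is known to bind short sites with the core ACGTG or GCGTG. Capitals mark that core or its reverse complement, CACGT or CACGC. Each window holds the 250 bases before the start, 5′ to 3′ on the gene's strand, from RefSeq (GRCh38.p14). The windows lie at chr10:131981924-131982173, minus strand for BNIP3, chr2:74833877-74834126, plus strand for HK2, chr17:28576896-28577145, minus strand for ALDOC, chr10:73096867-73097116, minus strand for P4HA1, and chr1:42958869-42959118, minus strand for SLC2A1.
BNIP3: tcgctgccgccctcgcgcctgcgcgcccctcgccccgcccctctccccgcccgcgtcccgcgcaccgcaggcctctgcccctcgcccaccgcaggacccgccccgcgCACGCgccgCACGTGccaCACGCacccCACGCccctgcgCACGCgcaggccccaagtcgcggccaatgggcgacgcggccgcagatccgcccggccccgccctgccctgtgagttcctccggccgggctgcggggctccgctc
HK2: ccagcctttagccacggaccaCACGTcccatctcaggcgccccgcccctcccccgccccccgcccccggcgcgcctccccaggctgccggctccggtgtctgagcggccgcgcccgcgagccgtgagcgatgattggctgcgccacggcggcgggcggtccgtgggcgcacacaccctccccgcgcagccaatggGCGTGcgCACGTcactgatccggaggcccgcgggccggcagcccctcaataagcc
ALDOC: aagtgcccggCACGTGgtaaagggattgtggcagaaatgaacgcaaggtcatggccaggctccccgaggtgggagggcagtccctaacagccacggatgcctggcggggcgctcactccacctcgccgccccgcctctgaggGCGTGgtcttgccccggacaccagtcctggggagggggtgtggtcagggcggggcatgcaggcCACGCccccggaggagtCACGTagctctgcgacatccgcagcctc
P4HA1: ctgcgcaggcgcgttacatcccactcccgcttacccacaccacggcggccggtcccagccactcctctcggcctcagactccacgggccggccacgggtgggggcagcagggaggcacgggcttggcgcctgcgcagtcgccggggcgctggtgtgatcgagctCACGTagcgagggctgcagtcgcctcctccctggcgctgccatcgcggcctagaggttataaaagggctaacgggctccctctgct
SLC2A1: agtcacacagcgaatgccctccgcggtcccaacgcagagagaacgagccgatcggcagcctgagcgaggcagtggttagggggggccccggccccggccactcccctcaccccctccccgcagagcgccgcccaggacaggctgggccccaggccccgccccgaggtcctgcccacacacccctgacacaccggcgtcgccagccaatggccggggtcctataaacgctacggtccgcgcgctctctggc
Windows were found for 30 of the 35 members, and not for SLC2A3, SLC16A1, PFKFB2, VEGFA and NDRG1. ACGTG or GCGTG stood on either strand in 19 of the 30 (63.3%), against 43.2% of 35116 promoter windows of the same length. ACGTG alone was in 13 (43.3%, against 18.5%), GCGTG in 10 (33.3%, against 32.2%), and CACGTG, which contains ACGTG on both strands, in 5 (16.7%, against 6.34%). GTAAACA, a core bound by FOXO factors, was on neither strand in any window, 0 of the 30, against 2.98%. A single window was taken for each member. The 35116 windows were not limited to a single window per gene or to genes tested here, so the shares are not like for like. Of the 7 members with a window that fell in 5 or more of the 9 treatments, 4 held ACGTG or GCGTG (HK2, ALDOC, BNIP3 and P4HA1) and 3 did not (SLC2A1, HK1 and PDK1). Among the 20 with a window that fell in fewer, 14 held it. SLC2A1 is shown as a member without a match in this window. A match describes the letters and was not tested for binding.

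The labelled cell type was checked against marker genes. Of 9 melanocyte markers 8 were on the array, with DMSO medians from 123.8 (TYRP1) to 2088 (S100B), and of 12 markers of other cell types 11 were, with DMSO medians from 0.9 (CD3E) to 48.0 (COL1A1). One array stood apart, replicate 3 of BEZ235 IC50. The ratio of the 3′ to the 5′ control probe sets of ACTB was 27.2 on it, against 1.58 to 2.33 on the other 39, and that of GAPDH was 3.44 against 1.05 to 1.26. It is called the degraded array here, and the main results at BEZ235 IC50 are also given without it. No 2 arrays held identical values.

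Against DMSO, the members that changed were mostly lower. A gene was called when its adjusted p was under 0.05 over all 11865 genes tested. With BKM120, 5 of 31 members were called at IC30, beside 21.4% of all genes called. None of them was higher (13.2% of all genes) and 5 were lower (8.16%). At BKM120 IC50, 6 were called (all genes 19.8%), 0 higher (12.6%) and 6 lower (7.24%). At BKM120 IC90 (max), 13 were called (all genes 34.2%), 0 higher (17.2%) and 13 lower (17.0%).

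With BEZ235, 17 members were called at IC50 (all genes 45.5%), 6 higher (26.6%) and 11 lower (18.9%). At BEZ235 IC90, 14 were called (all genes 55.0%), 2 higher (31.1%) and 12 lower (23.9%), and at max 18 (all genes 57.7%), 5 higher (32.8%) and 13 lower (24.9%). With GDC0941, 5 were called at IC50 (all genes 16.1%), 1 higher (9.94%) and 4 lower (6.19%). At GDC0941 IC90, 7 were called (all genes 25.3%), 0 higher (15.4%) and 7 lower (9.83%), and at max 15 (all genes 43.7%), 2 higher (25.5%) and 13 lower (18.2%). At GDC0941 IC50 the count was 2 to 3 without replicates 2 or 4 of DMSO, or 3 or 4 of the treatment. The share of members called was thus near that of all genes in each treatment. Groups of 4 arrays that did not overlap DMSO were common too. They were found in 6, 5 and 14 members from the lowest to the highest level of BKM120 (all genes 26.7%, 26.5% and 38.7%). With BEZ235 they were found in 10, 14 and 16 (29.4%, 53.8% and 56.2%), and with GDC0941 in 5, 9 and 14 (23.0%, 31.6% and 42.0%). In comparisons between compounds or levels, 12.8% to 48.4% of all genes did not overlap.

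The median change of the members was 0.01, -0.08 and -0.16 on the log2 scale from the lowest to the highest level of BKM120, -0.01, -0.10 and -0.13 for BEZ235, and 0.02, -0.07 and -0.13 for GDC0941. All genes tested had medians between -0.00 and 0.04. No test of the list as a whole was made. Without the degraded array the split at BEZ235 IC50 was 3 higher and 12 lower (all genes 2862 and 2392) and the member median -0.07. After quantile normalization of the arrays that split was 2 higher and 18 lower (all genes 3082 and 2181).

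**Figure D1:**
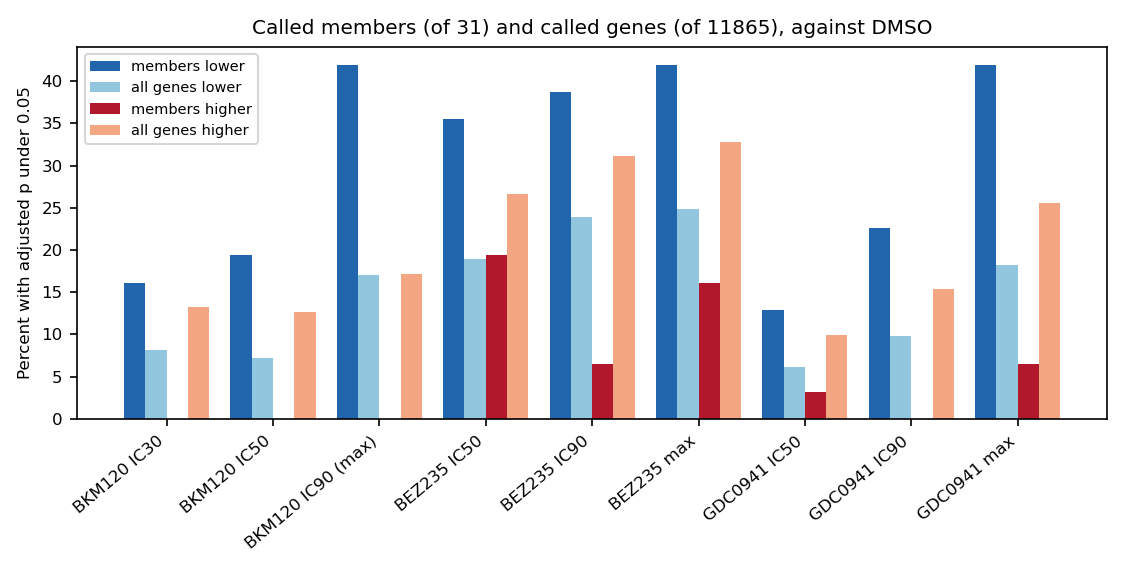
Percent called against DMSO (vertical axis) in each treatment (horizontal axis), for the 31 tested members and for all 11865 genes tested, with lower and higher calls as separate bars. At the highest level of each compound 13 members were lower, and 0 to 5 were higher.

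Over the 9 treatments, 15 members were only ever called lower, 6 only higher, 4 in both directions and 6 in none. Of all 11865 genes, 31.7% were only lower, 41.2% only higher, 9.79% in both directions and 17.3% in none. In 7 or more treatments, 4.21% were lower and 7.58% higher. BNIP3 was lower in all 9, SLC2A1, HK2, VEGFA and P4HA1 in 8, and PDK1 in 7. The 6 called in none were PFKL, PFKP, ALDOA, ENO1, PFKFB3 and HIF1A. Of 100 member calls against DMSO, 75 held when each of the arrays compared was left out in turn and 25 did not. Among those 25 were the rise and the fall of ADM and the only fall of NDRG1, members counted in both directions. These counts take each gene by its brightest probe set. That choice decides the direction for HK2 and EGLN1, and for PKM at BKM120 IC90 (max). With the mean over probe sets, 1 member was higher and 15 were lower at BKM120 IC90 (max) (all genes 2286 and 2282).

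**Figure D2:**
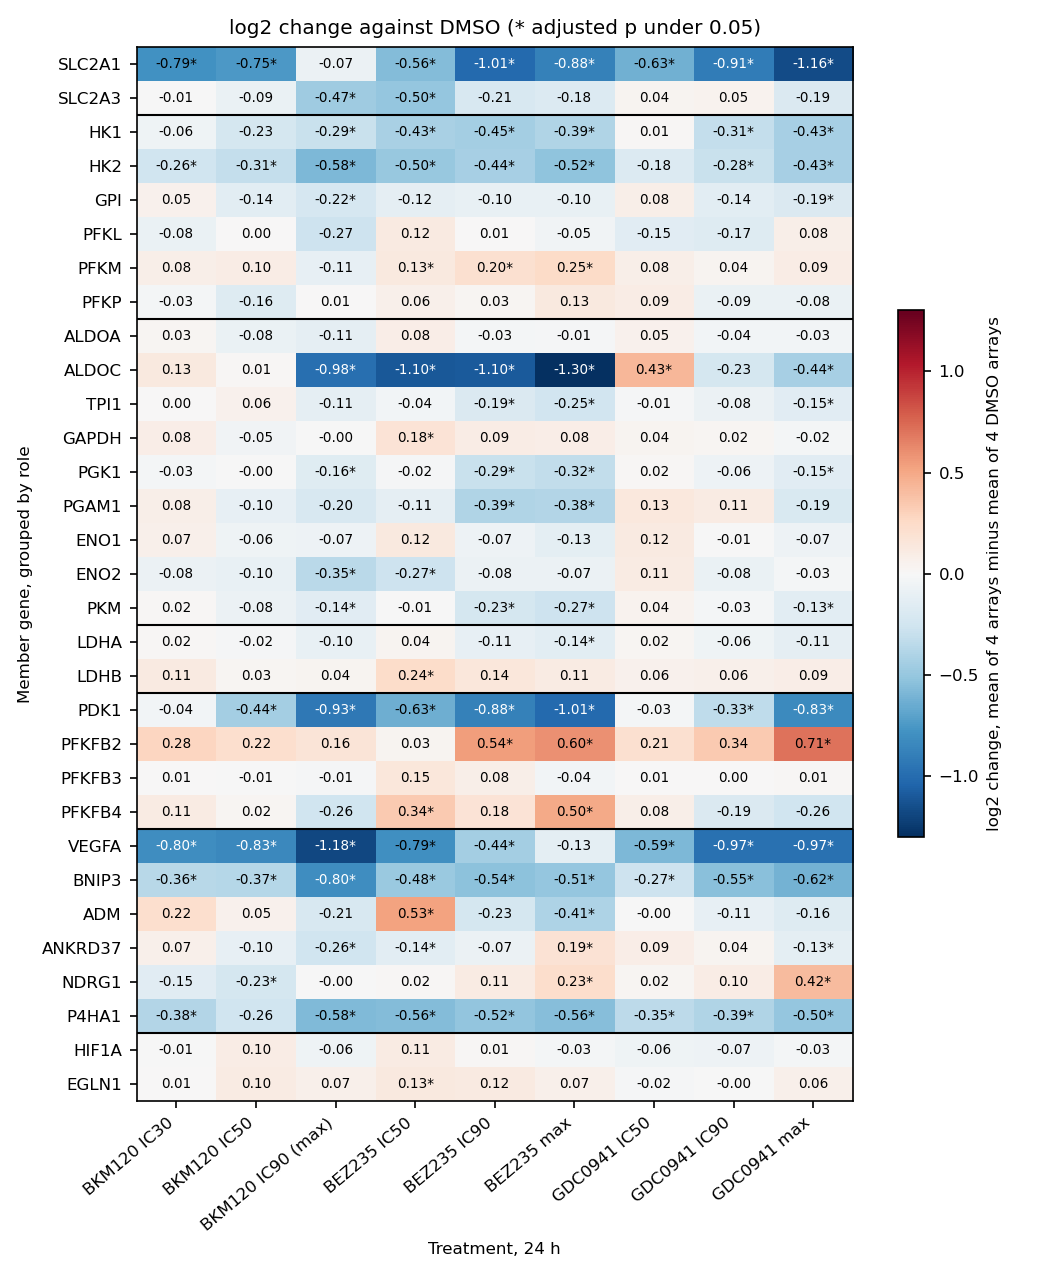
Mean log2 change against DMSO (4 arrays against 4) for each tested member (rows, grouped by role) and treatment (columns), with an asterisk at an adjusted p under 0.05. SLC2A1, HK2, PDK1, VEGFA, BNIP3 and P4HA1 are blue in most columns, and the SLC2A1 cell at BKM120 IC90 (max) and the VEGFA cell at BEZ235 max are nearly white.

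SLC2A1 encodes GLUT1, the main basal glucose transporter. Its signal in the 4 DMSO arrays was 524, 531, 506 and 528. BKM120 gave 273, 312, 304 and 298 at IC30 and 319, 331, 312 and 262 at IC50, well below every DMSO array. At IC90 (max) of BKM120 the arrays read 549.6, 495, 436 and 509, which overlapped DMSO. BEZ235 gave 271, 213, 249.5 and 273 at IC90 and 292, 276, 280.5 and 261 at max. GDC0941 gave 344, 352, 310.4 and 324 at IC50, 260.5, 237, 299 and 293 at IC90, and 247, 236, 197 and 219.5 at max. Every array of these 5 groups lay below DMSO.

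The fall of SLC2A1 was 0.79 on the log2 scale at BKM120 IC30 (SE 0.14, adjusted p = 4.26e-05, n = 4 per group) and 0.75 at IC50, and the value at IC90 (max) was -0.07 (adjusted p = 0.716). It fell by 1.01 at BEZ235 IC90 and by 0.88 at max. With GDC0941 it fell by 0.63, 0.91 and 1.16 from IC50 to max (adjusted p = 8.66e-09 at max, 2.24-fold). SLC2A1 was thus lowest at the top level of GDC0941 and near DMSO at the top level of BKM120. The rise from BKM120 IC30 to IC90 (max) was 0.71 (SE 0.14, adjusted p = 7.51e-05), and the 4 arrays of each level did not overlap. At BEZ235 IC50 the arrays read 285, 282, 633 and 286, the high value being the degraded array. The change there was -0.56 with that array and -0.84 without it, and it was called in both. A fit of these 2 groups alone, the degraded array included, did not call it (adjusted p = 0.11). A second probe set of SLC2A1 was lower in 8 treatments too.

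SLC2A3 encodes GLUT3, a transporter of high affinity. In DMSO its arrays read 590.8, 477, 593 and 529. BKM120 at IC90 (max) gave 383, 414, 358 and 408, all below DMSO, and BEZ235 at IC50 gave 459, 404, 268 and 416. SLC2A3 fell by 0.47 (SE 0.10, adjusted p = 0.000375) and by 0.50 (0.35 without the degraded array) there, and was not called in the other 7 treatments, where its changes ran from -0.21 to 0.05. At IC90 (max) of BKM120 the pair of transporters thus differed, with GLUT3 lower and GLUT1 near its DMSO level.

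In upper glycolysis, the hexokinase genes HK1 and HK2 (by its brightest probe set) were called lower and no phosphofructokinase gene was. HK1, the constitutive hexokinase, read 474, 422, 470.2 and 470.6 in DMSO. It fell in 6 treatments, by 0.29 at BKM120 IC90 (max), 0.43, 0.45 and 0.39 at the levels of BEZ235 (0.57 at IC50 without the degraded array), and 0.31 and 0.43 at IC90 and max of GDC0941. At BEZ235 IC90 its arrays read 328.5, 340.2, 320.3 and 342 and lay below DMSO (SE 0.10, adjusted p = 0.000286). The calls at BKM120 IC90 (max) and GDC0941 IC90 ended without single arrays. At the first, leaving out replicates 1, 3 or 4 of DMSO or replicates 1 or 3 of the treatment gave adjusted p of 0.0509 to 0.0573. At the second, leaving out replicates 1 or 4 of DMSO or 4 of the treatment gave 0.0521 to 0.0869. GPI, which isomerises glucose phosphate, fell by 0.22 at BKM120 IC90 (max) and by 0.19 at GDC0941 max, with arrays that overlapped DMSO. The first call of GPI ended without replicate 4 of DMSO or 2 of the treatment (adjusted p = 0.0573 and 0.0509), and the second without replicates 1 or 4 of DMSO or 1 of the treatment (adjusted p from 0.0506 to 0.0965). PFKM, the muscle-type phosphofructokinase gene, rose with BEZ235, by 0.13, 0.20 and 0.25 (SE 0.05 each), and its 4 arrays lay above DMSO at IC90 and max. The call of PFKM at IC50 ended without replicates 2 or 3 of DMSO or 2 of the treatment (adjusted p from 0.0535 to 0.0851). PFKL and PFKP had changes against DMSO between -0.27 and 0.13, with no call.

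HK2 encodes the inducible hexokinase bound to mitochondria, and its 3 probe sets went in opposite directions. The brightest, 202934_at, read 1337, 1207, 1281 and 1158 in DMSO. It read 1023, 1046, 949 and 1127 at IC30 of BKM120, 991, 1007, 1009 and 987 at IC50, and 840.1, 816, 808 and 839.7 at IC90 (max). With BEZ235 it read 964, 906, 665 and 1015 at IC50, 893, 939, 940.2 and 892 at IC90, and 834, 796, 911 and 914 at max. All 24 arrays of these 6 treatments lay below the DMSO arrays. GDC0941 gave 1199, 1052, 1135 and 1011 at IC50, which overlapped DMSO, then 934, 1048, 1135 and 968 at IC90 and 834, 969.8, 874 and 1010.2 at max, which did not.

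By this probe set HK2 fell by 0.26, 0.31 and 0.58 with rising level of BKM120, by 0.50, 0.44 and 0.52 with BEZ235, and by 0.28 and 0.43 at IC90 and max of GDC0941 (SE 0.08 each, adjusted p = 5.22e-07 at BKM120 IC90 (max)). At BEZ235 IC50 the fall was 0.37 without the degraded array. The call at BKM120 IC30 ended without replicate 1 of DMSO (adjusted p = 0.07) or replicate 3 of the treatment (adjusted p = 0.0802).

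The HK2 probe set 222305_at read 193, 160.5, 184 and 195 in DMSO, and rose. It read 349.7, 377, 583 and 348 at BEZ235 IC50, 392, 372, 367 and 329.5 at IC90, and 418, 360.5, 356 and 367 at max. At GDC0941 max it read 336, 294, 379 and 359. The 16 arrays of these groups all lay above DMSO, and the highest, 583, was the degraded array. Its rise was 1.08 (0.91 without that array), 0.94 and 0.97 with BEZ235, 0.48, 0.71 and 0.84 with GDC0941, and 0.43 and 0.34 at IC30 and IC50 of BKM120, and the value at IC90 (max) of BKM120 was 0.04 (SE 0.10 each). It was called higher in 8 of 9 treatments, and 7 of those were treatments where 202934_at was called lower. The third probe set of HK2, 239410_at, was dim, at 48.4, 37.9, 42.5 and 37.0 in DMSO, and rose in 3 treatments, by 0.49 and 0.50 at IC50 and IC90 of BEZ235 and by 0.43 at GDC0941 max. When the 3 probe sets were averaged, HK2 rose by 0.36, 0.33 and 0.22 with BEZ235 and by 0.25 and 0.28 at IC90 and max of GDC0941, and fell by 0.23 at BKM120 IC90 (max). Its direction therefore rests on the probe set, and which part of the transcript each reads was not given in the sources used here.

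**Figure D3:**
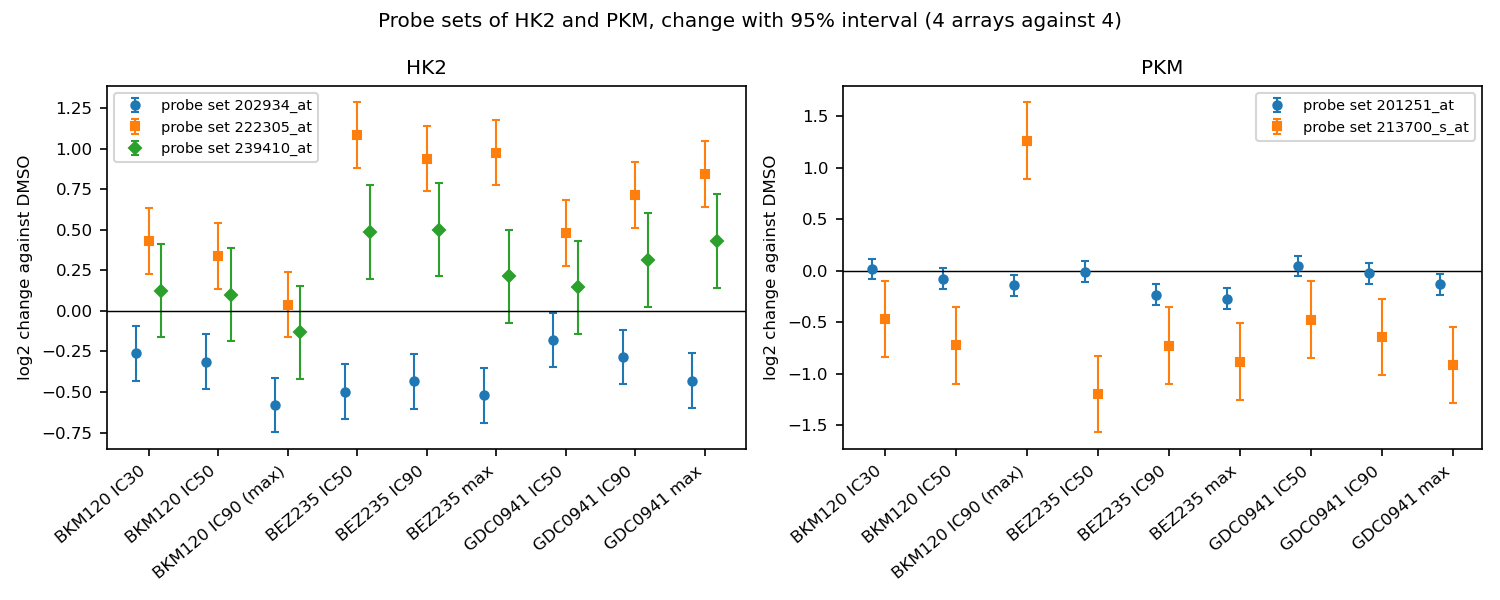
Log2 change against DMSO (vertical axis, points with 95% intervals, 4 arrays against 4) for each probe set of HK2 (left) and PKM (right) in the 9 treatments (horizontal axis). The HK2 probe set 202934_at lies below 0 and 222305_at above 0 in nearly every treatment, and the PKM probe set 213700_s_at lies above 0 only at BKM120 IC90 (max).

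In lower glycolysis, 9 enzyme genes were tested, and ALDOC had the largest change. ALDOC encodes aldolase C, the brain-type isoform of the enzyme that splits fructose bisphosphate. It read 118, 134, 112 and 120.4 in DMSO, and 129, 134, 126 and 147 at IC30 and 118, 121, 115 and 137 at IC50 of BKM120, which overlapped DMSO. At IC90 (max) of BKM120 it read 53.8, 53.1, 51.3 and 55.0, less than any array of DMSO. BEZ235 gave 57.8, 45.9, 47.2 and 41.7 at IC50, 54.7, 58.4, 38.2 and 43.3 at IC90, and 43.8, 40.7, 32.0 and 42.9 at max. GDC0941 gave 162, 157, 183 and 173 at IC50, all above DMSO. At IC90 of GDC0941 it read 93.2, 95.4, 108 and 108, and at max 95.3, 77.8, 85.1 and 84.0, all below DMSO.

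ALDOC fell by 0.98 at BKM120 IC90 (max) (SE 0.09, adjusted p = 7e-11) and by 1.10, 1.10 and 1.30 at the levels of BEZ235 (adjusted p = 8.52e-15 at max, 2.46-fold). With GDC0941 it rose by 0.43 at IC50 (adjusted p = 0.000796), had a value of -0.23 at IC90 (adjusted p = 0.0644) and fell by 0.44 at max (adjusted p = 0.000166). ALDOC was thus 1 of 4 members called in both directions, and it fell from the lowest to the highest level of GDC0941 by 0.86 and of BKM120 by 1.11 (SE 0.09 each). From BEZ235 IC50 to max the value was -0.20 (adjusted p = 0.0798). Without the degraded array its fall at BEZ235 IC50 was again 1.10.

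The other lower enzymes had changes against DMSO between -0.39 and 0.18. TPI1, PGK1 and PKM, for triose phosphate isomerase, phosphoglycerate kinase and pyruvate kinase, fell by 0.19, 0.29 and 0.23 at BEZ235 IC90 and by 0.25, 0.32 and 0.27 at max, with arrays that did not overlap DMSO. PGAM1, phosphoglycerate mutase, fell by 0.39 and 0.38 there (SE 0.09, adjusted p = 0.000588 and 0.000749), with arrays that overlapped DMSO. TPI1, PGK1 and PKM also fell by 0.15, 0.15 and 0.13 at GDC0941 max, and PGK1 and PKM by 0.16 and 0.14 at BKM120 IC90 (max), and each of these 5 calls ended when some single arrays were left out. At GDC0941 max those were replicate 3 of DMSO or 1 of the treatment for TPI1 (adjusted p = 0.058 and 0.0501), replicates 1, 3 or 4 of DMSO or 2, 3 or 4 of the treatment for PGK1 (0.0522 to 0.13), and replicates 1, 3 or 4 of DMSO or 1 or 2 of the treatment for PKM (0.0676 to 0.125). At BKM120 IC90 (max) they were replicates 3 or 4 of DMSO or any of the treatment for PGK1 (0.053 to 0.098), and replicates 1, 3 or 4 of DMSO or 2 or 4 of the treatment for PKM (0.0517 to 0.0773). The 3 calls of TPI1 ended when probe sets whose design can match other genes were left out, with values of -0.18 at BEZ235 IC90, -0.08 at BEZ235 max and -0.21 at GDC0941 max (adjusted p from 0.0624 to 0.489). Averaged over its probe sets TPI1 was called lower there, at -0.21, -0.22 and -0.19. For PGK1, 5 other probe sets were called lower in 4 to 6 treatments each. The average over the probe sets of PGK1 was -0.56 and -0.61 at IC90 and max of BEZ235, -0.29 at GDC0941 max and -0.31 at BKM120 IC90 (max), all called, and it was also called at BEZ235 IC50 (-0.33) and GDC0941 IC90 (-0.12). By its brightest probe set PGK1 was called at BEZ235 IC50 only without the degraded array (-0.14, adjusted p = 0.00382). ENO2, the neuronal enolase gene, fell by 0.35 at BKM120 IC90 (max) and 0.27 at BEZ235 IC50. ALDOA and ENO1, the broadly expressed aldolase and enolase genes, had changes from -0.13 to 0.12 against DMSO with no call.

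PKM also had a second, dimmer probe set, 213700_s_at, which was chosen for description after its values were seen. It read 130.7, 163.7, 140.2 and 154.9 in DMSO and 409.9, 329.2, 380.8 and 383 at BKM120 IC90 (max), a rise of 1.26 (SE 0.18, adjusted p = 1.16e-06). With BEZ235 at max it read 64.6 to 88.1, a fall of 0.88, and at GDC0941 max 56.3 to 99.8, a fall of 0.92. The brighter probe set of PKM fell by 0.14 in the treatment where this one rose. The 2 probe sets of PKM thus disagreed in direction at BKM120 IC90 (max) and not in the other 3 treatments where both were called. Averaged over its probe sets PKM rose by 0.56 at BKM120 IC90 (max) and fell by 0.48, 0.58 and 0.53 at BEZ235 IC90, BEZ235 max and GDC0941 max.

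Lactate dehydrogenase changed little. LDHA, whose subunit favours lactate formation, fell by 0.14 at BEZ235 max (adjusted p = 0.04), a call that ended without replicates 1, 3 or 4 of DMSO or 1, 2 or 3 of the treatment (adjusted p from 0.0649 to 0.159), and had changes from -0.11 to 0.04 elsewhere. LDHB rose by 0.24 at BEZ235 IC50 (SE 0.06, 0.18 without the degraded array). GAPDH, the dehydrogenase of the middle of the pathway, rose by 0.18 at BEZ235 IC50 and was not called without the degraded array (0.13, adjusted p = 0.095) or without replicate 2 of DMSO (adjusted p = 0.106). The direction of GAPDH and LDHB at BEZ235 IC50 turned after quantile normalization, to -0.08 and -0.05.

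Among genes that set the flow, PDK1 fell and PFKFB2 rose. PDK1 encodes pyruvate dehydrogenase kinase 1, which inhibits pyruvate dehydrogenase. Its arrays read 657, 573, 621 and 639.8 in DMSO and 591, 660.4, 606 and 565 at BKM120 IC30, which overlapped. They read 510.1, 421, 448 and 444 at BKM120 IC50 and 320.0, 279.8, 403 and 285 at IC90 (max), below DMSO at both levels. BEZ235 gave 458, 441, 417 and 288 at IC50, 262, 353, 383 and 335 at IC90, and 359.5, 287, 259.9 and 306 at max. GDC0941 gave 627, 598, 605 and 612 at IC50, inside the DMSO range, then 456, 462, 530.0 and 517 at IC90 and 378, 275, 405 and 331 at max, both below DMSO.

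PDK1 fell with each step of level for BKM120 and GDC0941. The values were -0.04, -0.44 and -0.93 for BKM120 and -0.03, -0.33 and -0.83 for GDC0941, and the falls from the lowest to the highest level were 0.89 and 0.80 (SE 0.12 each, adjusted p = 1.75e-07 and 2.49e-06). With BEZ235 it fell by 0.63, 0.88 and 1.01 (adjusted p = 3.96e-09 at max, 2.01-fold). The call at GDC0941 IC90 (adjusted p = 0.0356) ended without replicates 1, 3 or 4 of DMSO, or 1 or 2 of the treatment (adjusted p from 0.0613 to 0.0953). A second PDK1 probe set was lower in 8 treatments. The mean over all 3 probe sets of PDK1 was -0.29 at BKM120 IC50. It takes in a dim probe set, with a mean log2 signal of 4.303, that was not tested.

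PFKFB2, PFKFB3 and PFKFB4 encode isoforms of the enzyme that makes and removes fructose 2,6-bisphosphate, an activator of phosphofructokinase. PFKFB2 read 83.9, 105.8, 79.3 and 80.3 in DMSO and 165.7, 159.6, 116.7 and 170.3 at GDC0941 max, a rise of 0.71 (SE 0.14, adjusted p = 0.000117). At BEZ235 max it read 130.4, 157.1, 133.3 and 138.6, a rise of 0.60, and at IC90 it rose by 0.54. PFKFB4 read 246.8, 232.2, 239.9 and 232.7 in DMSO and 364, 331.3, 340.4 and 334.7 at BEZ235 max, a rise of 0.50 (SE 0.13). These 4 rises held without each array and had no overlap with DMSO. Of all genes, 53.8% at BEZ235 IC90, 56.2% at BEZ235 max and 42.0% at GDC0941 max had no overlap either. The second probe set of PFKFB2 was called in 0 of 9 treatments. The average over all 4 probe sets of PFKFB2 took in dim ones, with mean log2 signals of 4.501 and 4.351. That average was 0.22 and 0.25 at IC90 and max of BEZ235 and 0.28 at GDC0941 max, still called (adjusted p = 0.028, 0.0118 and 0.00629). At BEZ235 IC50 PFKFB4 read 238.7, 271.7, 552 and 240.3, and its value was 0.34 with and 0.07 without the degraded array (adjusted p = 0.479), and the call also ended without replicates 2, 3 or 4 of DMSO (adjusted p from 0.0505 to 0.0619). PFKFB3 had changes from -0.04 to 0.15 and was not called.

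The 6 tested hypoxia targets did not move as 1 group. VEGFA, BNIP3 and P4HA1 fell in nearly every treatment, while ADM, ANKRD37 and NDRG1 were called in both directions. The rise and the fall of ADM and the only fall of NDRG1 lost their calls when single arrays were left out. VEGFA encodes the vascular endothelial growth factor. It varied among the DMSO arrays, at 422, 649.9, 496 and 665. BKM120 gave 282, 276, 399.8 and 287 at IC30, 433, 283, 279 and 239 at IC50, and 195, 221, 269.8 and 252 at IC90 (max). GDC0941 gave 359, 369, 326 and 388 at IC50, 276, 298, 275 and 244 at IC90, and 295, 262, 354 and 201 at max. Of these 24 arrays, 23 lay below DMSO, and replicate 1 of BKM120 IC50 overlapped it. BEZ235 gave 394, 384, 178 and 337 at IC50, 421, 439.7, 377 and 365 at IC90, and 657, 386, 499.8 and 496 at max. The first group lay below DMSO, the second overlapped it by 1 array, and the third overlapped it widely.

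VEGFA fell by 0.80, 0.83 and 1.18 with BKM120 (SE 0.18 each, adjusted p = 3.2e-06 at IC90 (max), 2.27-fold) and by 0.59, 0.97 and 0.97 with GDC0941. With BEZ235 the values went the other way with level, at -0.79, -0.44 and -0.13, and the last was not called (adjusted p = 0.573). The rise from BEZ235 IC50 to max was 0.67 (SE 0.18, adjusted p = 0.00397), and 0.42 without the degraded array (adjusted p = 0.0402), while a fit of these 2 groups alone did not call it (adjusted p = 0.0942). At BEZ235 IC50 the fall was 0.55 without that array. The call at BEZ235 IC90 (adjusted p = 0.0398) ended without replicates 2 or 4 of DMSO or 1, 3 or 4 of the treatment (adjusted p from 0.051 to 0.135). The call at GDC0941 IC50 ended without replicates 2 or 4 of DMSO or 3 of the treatment (adjusted p from 0.0664 to 0.0918). Of 3 further probe sets of VEGFA, 1 was lower in all 9 treatments, with a fall of 0.30 at BEZ235 max (adjusted p = 0.0484), and the mean over probe sets was also called lower there (-0.23, adjusted p = 0.0341). At BKM120 IC90 (max) and GDC0941 IC90 that mean was -0.60 and -0.63 for VEGFA. It takes in the dim probe sets 210513_s_at and 211527_x_at, with mean log2 signals of 5.115 and 4.719.

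BNIP3 encodes a protein of the outer mitochondrial membrane that marks mitochondria for removal. It read 1214, 1252, 1223 and 1319 in DMSO. It read 959, 977, 906 and 1058 at BKM120 IC30, 980.1, 914, 995 and 957 at IC50, and 694, 733, 673 and 741 at IC90 (max). BEZ235 gave 833, 831, 1295 and 708 at IC50, where the high value is the degraded array, 786, 872, 875 and 904 at IC90, and 850.1, 925, 849.5 and 882 at max. GDC0941 gave 1048, 934, 1095 and 1067 at IC50, 874, 753, 849 and 937 at IC90, and 826, 824, 719 and 882 at max. Apart from the degraded array, the other 35 treated arrays all lay below the lowest DMSO array. BNIP3 fell by 0.36, 0.37 and 0.80 with BKM120, 0.48, 0.54 and 0.51 with BEZ235 (0.66 at IC50 without the degraded array), and 0.27, 0.55 and 0.62 with GDC0941 (SE 0.10 each, adjusted p = 1.97e-08 at BKM120 IC90 (max)). A fit of BEZ235 IC50 and DMSO alone did not call it (adjusted p = 0.0562). The call at GDC0941 IC50 (adjusted p = 0.0474) ended when any 1 of its 8 arrays was left out (adjusted p from 0.0509 to 0.168).

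P4HA1 encodes the catalytic subunit of prolyl 4-hydroxylase, which modifies collagen. It read 1278, 1570.4, 1508 and 1284 in DMSO. BKM120 gave 1187, 1022, 1035 and 1059 at IC30, 1084, 1300.3, 1181 and 1126 at IC50, and 828, 978, 1017 and 935 at IC90 (max). BEZ235 gave 1026, 719, 1089 and 990.1 at IC50, 979, 975, 1026 and 932 at IC90, and 969, 996, 923 and 917 at max. The 2 groups that overlapped DMSO were BKM120 IC50 and GDC0941 IC50, the latter at 1287, 1149, 1103 and 904. GDC0941 gave 1010.0, 1141, 1140.1 and 990.3 at IC90 and 952, 1149, 856 and 1023 at max. P4HA1 fell by 0.38 and 0.58 at IC30 and IC90 (max) of BKM120, by 0.56, 0.52 and 0.56 with BEZ235 and by 0.35, 0.39 and 0.50 with GDC0941 (SE 0.10 each), and its value at BKM120 IC50 was -0.26 (adjusted p = 0.0596). Averaged over its probe sets P4HA1 was lower by less, with called values from -0.35 to -0.17. Between IC50 and max of BEZ235 the difference was 0.01 (95% interval -0.19 to 0.21). The call at GDC0941 IC50 ended without replicate 2 of DMSO (adjusted p = 0.0647) or 4 of the treatment (adjusted p = 0.102).

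**Figure D4:**
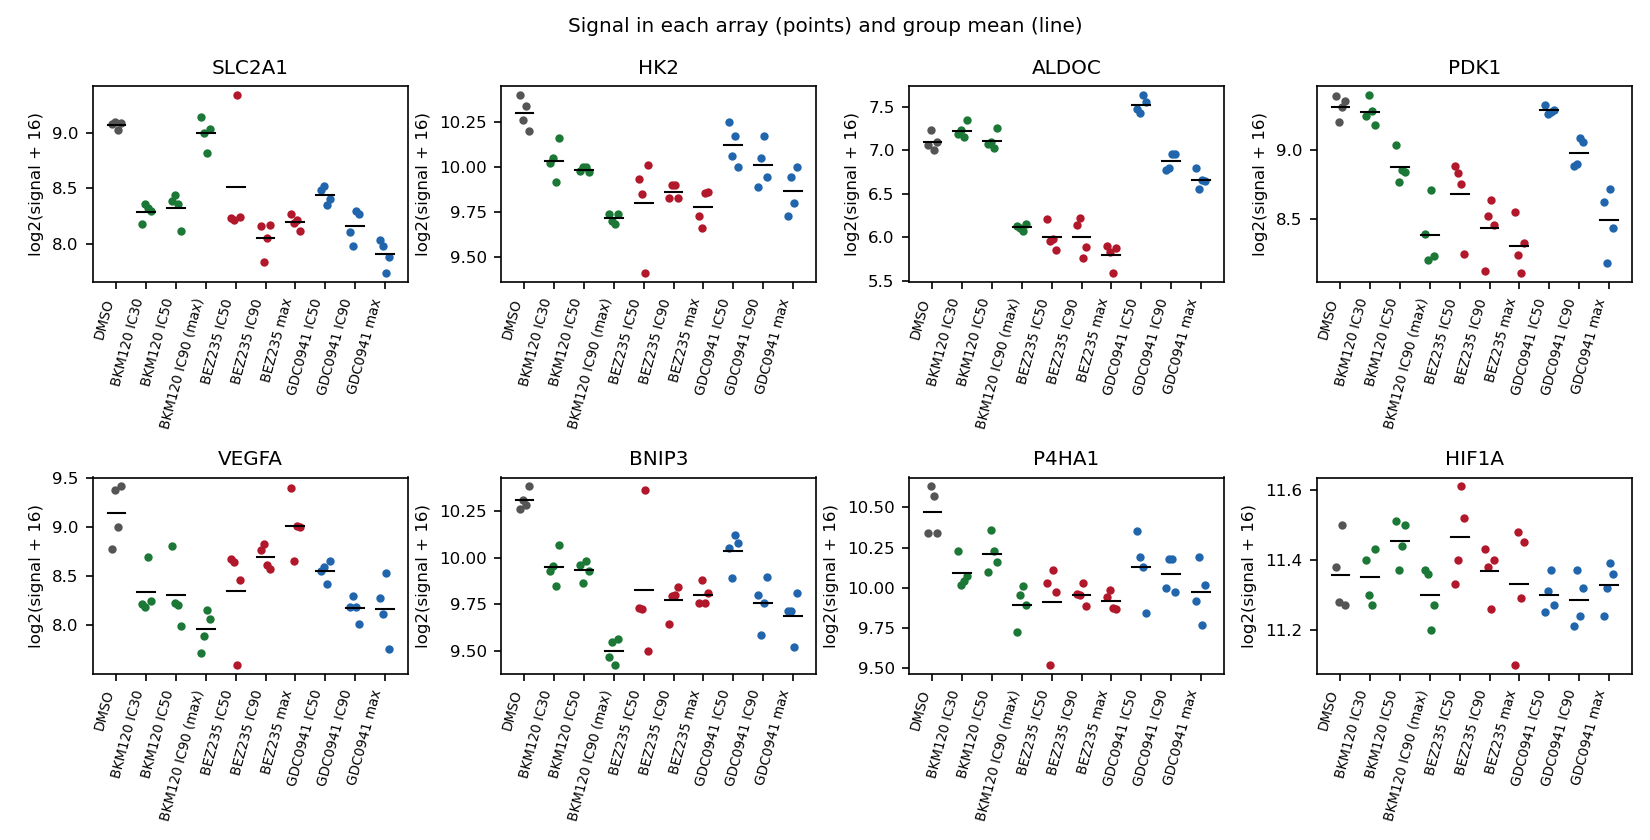
Log2(signal + 16) of each array (points) and the group mean (line) for SLC2A1, HK2 (probe set 202934_at), ALDOC, PDK1, VEGFA, BNIP3, P4HA1 and HIF1A in DMSO and the 9 treatments. The single far point of SLC2A1 and of BNIP3 at BEZ235 IC50 is the degraded array, and the HIF1A points overlap those of DMSO in all 9 treatments.

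NDRG1, a stress-responsive gene, rose at the highest level of GDC0941 and of BEZ235. It read 674, 580.2, 673.5 and 667 in DMSO, 861, 873, 968 and 782 at GDC0941 max, and 724, 775, 752 and 802.5 at BEZ235 max. The rises were 0.42 (SE 0.07, adjusted p = 1.39e-05) and 0.23, with no overlap, and at BKM120 IC50 NDRG1 fell by 0.23. That last call ended without replicates 1, 3 or 4 of DMSO or 1 of the treatment (adjusted p from 0.0646 to 0.0698).

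ADM, for the vasodilator peptide adrenomedullin, read 140.2, 116.7, 134 and 131.7 in DMSO and 166.7, 170.2, 333.8 and 149.5 at BEZ235 IC50. Its value there was 0.53 with the degraded array, which held the highest reading, and 0.28 without it (adjusted p = 0.0871). At BEZ235 max it read 100.8, 80.3, 102.4 and 95.9, a fall of 0.41 (adjusted p = 0.0291) whose call ended without any 1 of 4 single arrays, replicates 1, 3 or 4 of DMSO and 2 of the treatment (adjusted p from 0.0516 to 0.0949). ANKRD37, an ankyrin repeat gene known as a HIF target, read 441, 429.2, 434.7 and 441.1 in DMSO. It read 375.9, 350.6, 379 and 344 at BKM120 IC90 (max), a fall of 0.26 (SE 0.05), and 490.3, 521.5, 475 and 519 at BEZ235 max, a rise of 0.19. The smaller falls of ANKRD37, 0.14 at BEZ235 IC50 and 0.13 at GDC0941 max, each ended without single arrays. Those were replicates 1, 3 or 4 of DMSO or 1 or 4 of the treatment for the first (adjusted p from 0.0529 to 0.12), and any of DMSO or 2, 3 or 4 of the treatment for the second (0.056 to 0.12). Averaged over its probe sets ANKRD37 was at -0.13 and 0.11 at BKM120 IC90 (max) and BEZ235 max, both called, and the smaller falls lost their call (adjusted p = 0.162 and 0.35).

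HIF1A, the oxygen-regulated subunit itself, kept a high transcript level. Its signal had a DMSO range of 2459 to 2883 and ran from 2184 to 3112 over all 36 treated arrays, with changes between -0.07 and 0.11 against DMSO and no call. HIF1A is mainly controlled through protein stability, which arrays do not measure. EGLN1, the main oxygen-sensing hydroxylase gene, was called by its brightest probe set at BEZ235 IC50 alone, at 0.13, and the call ended without replicates 1, 2 or 4 of DMSO or 2 or 4 of the treatment (adjusted p from 0.0506 to 0.204). Its other 2 probe sets that were bright enough to be tested were called lower in 4 and 2 treatments. Averaged over the probe sets EGLN1 was at -0.05 at BEZ235 IC50, with no call, and was called lower at IC90 and max of BEZ235 (-0.12 and -0.16, adjusted p = 0.0298 and 0.00399) and at GDC0941 max (-0.20, adjusted p = 0.000456). Its direction thus rests on the probe set, as for HK2. EGLN3 was below the limit of brightness, and no change is given for it.

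Compounds were compared directly at levels of the same name, and molar doses were not known. At IC50, BKM120 and GDC0941 differed in 1 of 31 members (all genes 0.598%, 0.455% higher and 0.143% lower). That was ALDOC, lower with BKM120 by 0.41 (SE 0.09, adjusted p = 0.0191), a call that ended without replicates 1, 2 or 3 of BKM120 or 4 of GDC0941 (adjusted p from 0.0607 to 0.0833). Members called were 6 of 31, all lower with BKM120, when the degraded array, which is in neither group, was left out of the fit (all genes 303 higher and 191 lower). In a fit of these 2 groups alone they were 7, all lower (all genes 258 and 132). For SLC2A1 the difference was -0.12 (95% interval -0.40 to 0.16), and for VEGFA it was -0.25 (-0.62 to 0.13). BKM120 and BEZ235 at IC50 differed in 8 members (3 higher and 5 lower with BKM120, all genes 32.1%, 15.2% higher and 16.9% lower), and BEZ235 and GDC0941 in 13 (4 higher and 9 lower with BEZ235, all genes 34.1%, 18.6% higher and 15.5% lower). ALDOC was again the largest, at 1.11 for BKM120 minus BEZ235 and -1.53 for BEZ235 minus GDC0941 (SE 0.09, adjusted p = 1.67e-15, no overlap). PDK1 was lower with BEZ235 than with GDC0941 by 0.61. SLC2A1 differed by 0.06 between BEZ235 and GDC0941 with the degraded array and by -0.21 without it (adjusted p = 0.0446). Without that array the splits were 7 higher and 2 lower for BKM120 against BEZ235 (all genes 1898 and 1745), and 1 higher and 13 lower for BEZ235 against GDC0941 (all genes 1965 and 2019). After quantile normalization the splits were 8 higher and 3 lower for BKM120 against BEZ235 (all genes 1735 and 2020), and 1 higher and 15 lower for BEZ235 against GDC0941 (all genes 2179 and 1817).

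At IC90, where BKM120's level is also its highest, 10 members differed between BKM120 and BEZ235 (1 higher and 9 lower, all genes 45.1%, 18.5% higher and 26.6% lower). Another 10 differed between BKM120 and GDC0941 (1 and 9, all genes 29.9%, 11.7% and 18.2%), and 9 between BEZ235 and GDC0941 (3 and 6, all genes 42.9%, 23.0% and 20.0%). After quantile normalization the first split was 5 higher and 9 lower (all genes 2307 and 3350), and its count was 6 without replicate 4 of BEZ235. The member that was higher with BKM120 was SLC2A1 in both cases, by 0.94 against BEZ235 and by 0.83 against GDC0941 (SE 0.14, adjusted p = 5.37e-07 and 8.32e-06), and no arrays overlapped. BEZ235 and GDC0941 differed in SLC2A1 by -0.11 (95% interval -0.39 to 0.17). VEGFA was lower with BKM120 than with BEZ235 by 0.74 (SE 0.18, adjusted p = 0.00118). VEGFA was higher with BEZ235 than with GDC0941 by 0.52 (adjusted p = 0.02), a call that ended without replicate 2 of BEZ235 or 4 of GDC0941 (adjusted p = 0.0558 and 0.0595). Both differences of VEGFA lost their call when its probe sets, the dim ones included, were averaged.

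ALDOC and PDK1 separated GDC0941 from the other compounds at IC90. ALDOC was lower by 0.76 with BKM120 and by 0.87 with BEZ235 than with GDC0941, and PDK1 by 0.60 and 0.55 (SE 0.09 and 0.12). Between BKM120 and BEZ235 the differences were 0.11 for ALDOC (95% interval -0.07 to 0.30) and -0.05 for PDK1 (-0.29 to 0.19). BNIP3 was 0.27 lower with BKM120 than with BEZ235 and 0.26 lower than with GDC0941. The first of these calls ended without replicate 3 of BKM120 or 4 of BEZ235 (adjusted p = 0.0607 and 0.059), and the second without replicates 1, 2 or 3 of BKM120 or 1, 3 or 4 of GDC0941 (0.0508 to 0.135). HK2 by its brightest probe set was 0.30 lower with BKM120 than with GDC0941 (adjusted p = 0.00478). SLC2A3 was lower with BKM120 than with GDC0941 by 0.52 (adjusted p = 0.000119) and than with BEZ235 by 0.26, the latter a call that ended without replicates 1 or 3 of BKM120 or 3 or 4 of BEZ235 (adjusted p from 0.0587 to 0.106). At IC90 the transporter genes SLC2A1 and SLC2A3 thus differed in opposite directions between BKM120 and the other compounds. At IC50, by contrast, SLC2A3 was higher with BKM120 than with BEZ235 by 0.41 (adjusted p = 0.00205). The difference was 0.25 without the degraded array (adjusted p = 0.017), and SLC2A1 was not called there in either fit.

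**Figure D5:**
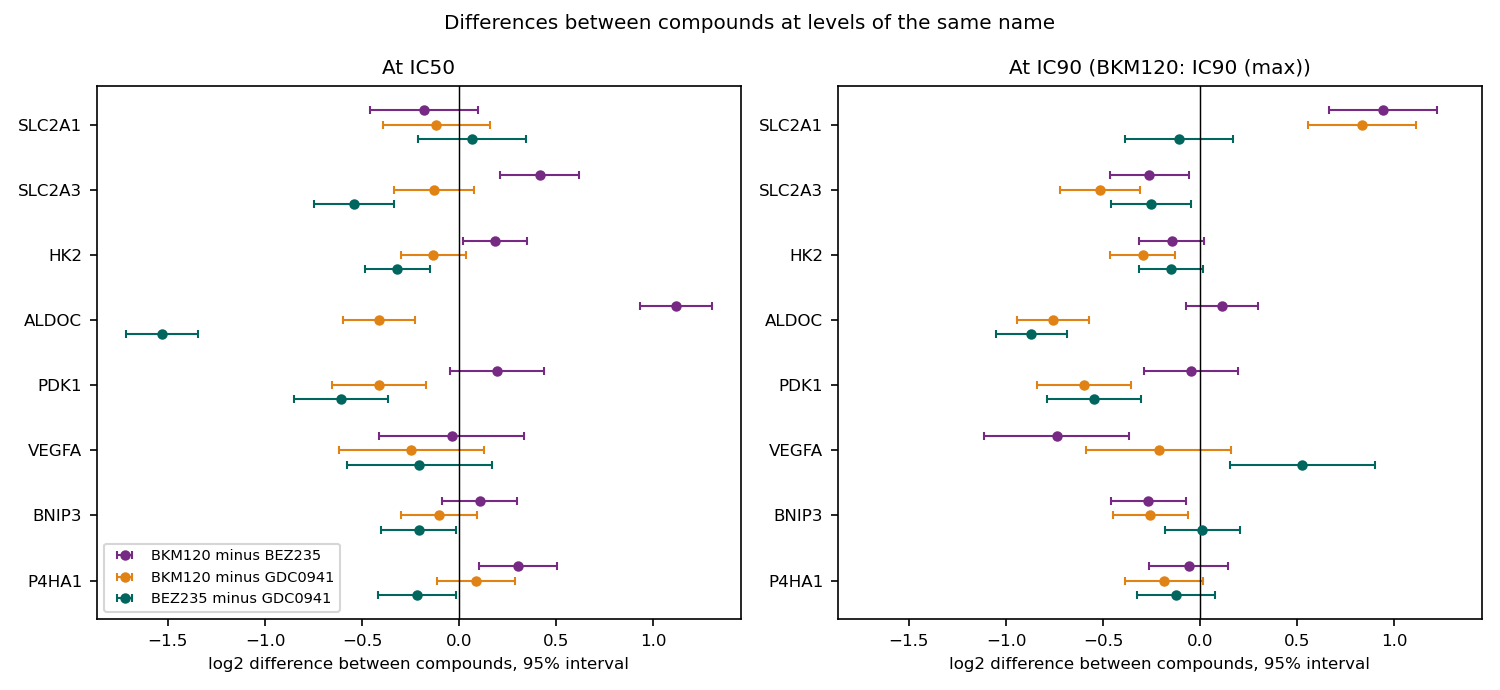
Difference in log2 signal between compounds (horizontal axis, points with 95% intervals, 4 arrays against 4) for 8 members (vertical axis) at IC50 (left) and IC90 (right). At IC50 the ALDOC points lie far from 0 where BEZ235 is compared, and at IC90 both SLC2A1 points for BKM120 lie above 0.5.

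Within a compound, the highest level differed from the lowest in 14 members for BKM120 (1 higher and 13 lower, all genes 34.0%, 14.3% higher and 19.7% lower), 16 for BEZ235 (7 and 9, all genes 39.1%, 20.2% and 18.9%) and 15 for GDC0941 (2 and 13, all genes 29.6%, 16.3% and 13.3%). SLC2A1 was the member that rose with BKM120. For GDC0941, PFKFB2 rose by 0.49 and NDRG1 by 0.39, and SLC2A1 fell by a further 0.53. For BEZ235, ADM fell by 0.93 (SE 0.16, 0.69 without the degraded array) and PFKFB2 rose by 0.56, with arrays that did not overlap.

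Other genes of the same pathways moved in both directions. Of 47 further genes of glucose metabolism, 42 were on the array and 37 were tested. At the highest levels of BKM120, BEZ235 and GDC0941, 5, 11 and 9 of them rose and 12, 15 and 9 fell. Of all genes, 17.2%, 32.8% and 25.5% were higher and 17.0%, 24.9% and 18.2% lower in those treatments. At BKM120 IC30, 7 rose and 0 fell (all genes 13.2% and 8.16%), and at IC50 6 and 1 (12.6% and 7.24%). At BEZ235 IC50, 9 rose and 10 fell (all genes 26.6% and 18.9%), and at IC90 10 and 17 (31.1% and 23.9%). At GDC0941 IC50, 7 rose and 1 fell (all genes 9.94% and 6.19%), and at IC90 5 and 3 (15.4% and 9.83%). Over all genes, 7.58% were higher in 7 or more treatments. PDK2, which encodes a second pyruvate dehydrogenase kinase, rose in all 9 treatments, by 0.70, 0.93 and 0.88 at the highest levels, opposite to PDK1. SLC2A10, for the transporter GLUT10, also rose in all 9, by 0.45, 0.77 and 0.81, and SLC2A6, for GLUT6, fell by 0.50 at BKM120 IC90 (max) and 1.03 at BEZ235 max. SLC2A13, a myo-inositol transporter gene, fell by 0.64 and 0.53 there. SLC16A7, for the monocarboxylate transporter MCT2, fell by 0.70 and 0.52. The glycogen phosphorylase genes PYGL and PYGB rose by 0.53 and 0.57 at BEZ235 max and by 0.50 and 0.41 at GDC0941 max. UGP2 and GBE1, which act in glycogen synthesis, fell by 0.48 and 0.37 at GDC0941 max.

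Of 50 further genes of the hypoxia response, 48 were on the array and 42 were tested. At the highest levels of BKM120, BEZ235 and GDC0941, 7, 11 and 11 rose and 18, 18 and 13 fell, beside the same shares of all genes (17.2%, 32.8% and 25.5% higher, 17.0%, 24.9% and 18.2% lower). At BKM120 IC30, 6 rose and 8 fell (all genes 13.2% and 8.16%), and at IC50 6 and 6 (12.6% and 7.24%). At BEZ235 IC50, 5 rose and 15 fell (all genes 26.6% and 18.9%), and at IC90 10 and 18 (31.1% and 23.9%). At GDC0941 IC50, 5 rose and 7 fell (all genes 9.94% and 6.19%), and at IC90 7 and 10 (15.4% and 9.83%). AK4, a mitochondrial adenylate kinase gene, and P4HA2, a paralogue of P4HA1, fell in all 9 treatments, by 0.88, 1.40 and 0.78 and by 0.72, 0.96 and 0.88 at the highest levels (SE 0.10 and 0.09). LOXL2, a lysyl oxidase gene, fell by 1.26 at BEZ235 max and 1.01 at GDC0941 max, and IGFBP3, a binding protein of insulin-like growth factors, by 0.82 and 1.06. STC2, for stanniocalcin 2, fell by 1.01 at BKM120 IC90 (max) and 0.74 at GDC0941 max. In the other direction, CITED2, which competes with HIF for a coactivator, rose by 0.29, 1.20 and 0.75 at the highest levels, and MXI1, an antagonist of MYC, rose in all 9 treatments, by 0.22, 0.50 and 0.45 there. DPYSL4 and GPR146 rose by 0.96 and 0.67 at BEZ235 max and by 0.62 and 0.76 at GDC0941 max.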

How the data were processed

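Total RNA (50 ng) from 40 cultures was hybridised to 40 one-colour arrays of 54675 probe sets. The deposited values are intensities made with MAS5, per the submitters' processing notes, its version not being given in the sources used here. The 2% trimmed mean of an array had a median of 150 over the 40 arrays. From the deposited intensity, log2(value + 16) was computed, so fold changes of dim genes are understated. Scaling of each array would remove any change in total RNA per cell.

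Of the probe sets, 41097 had a single symbol, 1801 several and 11777 none in the platform annotation, and 62 controls were left out. The brightest probe set stood for each of 19775 genes, and 11865 genes above the 40th percentile of mean log2 signal were tested. A single linear model over the 10 groups was fitted with limma 3.58.1 (R 4.3.3, trended variance, 30 residual degrees of freedom) for 18 comparisons, with Benjamini-Hochberg adjustment within each and calls at an adjusted p under 0.05. Probe sets were fitted the same way for genes with several. The model was tested on simulated data. Signals of 1 gene are not set against those of another. Precision is limited by 4 arrays per group.

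The members, the further gene lists and the comparisons were chosen with earlier results of these data known. Values for every array are given for members with a log2 change of at least 1 or calls in at least 7 of 9 treatments. Other members are named where called, and further genes by the size of the change at the highest levels among those whose arrays did not overlap. Alternatives covered the offset, quantile normalization, the filter, the choice of probe set, the degraded array, the samples fitted, the replicate number and leaving out each array. The mean over probe sets took in every probe set of a gene, also those too dim to be tested.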

Additional observations from a re-analysis of the deposited data

Results flagged for a closer look

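Within each group of 4 arrays, the highest or lowest log2(signal + 16) was compared with the nearest of the others. Among 320 groups looked at, 27 held a far value, and chance gives about 1 in 20 groups. Of these, 6 were in the degraded array, replicate 3 of BEZ235 IC50, at 9.34 for SLC2A1, 7.18 for PFKL, 11.16 for TPI1, 11.49 for PGK1, 9.15 for PFKFB4 and 8.45 for ADM. The other 21 lay elsewhere.

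In DMSO, replicate 2 was far from the others for HK1 (8.77), PKM (11.25) and NDRG1 (9.22). At BKM120 IC30 the far values were replicate 2 for PGK1 (11.09) and ENO1 (10.83), replicate 1 for LDHB (11.89), replicate 3 for PFKFB3 (10.66) and VEGFA (8.70), and replicate 4 for NDRG1 (8.90). BKM120 IC50 held 1, replicate 4 for PFKM (10.19). At BKM120 IC90 (max) they were replicate 4 for PFKP (9.95) and ALDOA (11.19), replicate 3 for TPI1 (10.86) and ADM (7.26), replicate 2 for PGAM1 (10.62) and replicate 1 for ENO1 (10.82). ENO1 was also far at BEZ235 max in replicate 2 (10.62) and at GDC0941 IC50 in replicate 4 (11.03). At GDC0941 max they were replicate 1 for TPI1 (10.88) and replicate 3 for LDHA (11.62) and PFKFB4 (7.86).

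Compounds differed by at least 0.5 on the log2 scale, past the threshold of the limma fit, in 14 member comparisons. At IC50 these were ALDOC for BKM120 minus BEZ235 (1.11), and SLC2A3 (-0.54), ALDOC (-1.53), PDK1 (-0.61) and ADM (0.53) for BEZ235 minus GDC0941. ADM was not called without the degraded array (adjusted p = 0.0997). At IC90 they were SLC2A1 (0.94) and VEGFA (-0.74) for BKM120 minus BEZ235, and SLC2A1 (0.83), SLC2A3 (-0.52), ALDOC (-0.76) and PDK1 (-0.60) for BKM120 minus GDC0941. For BEZ235 minus GDC0941 at IC90 they were ALDOC (-0.87), PDK1 (-0.55) and VEGFA (0.52).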

How the results depend on the processing

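Of 196 called member results over the 18 comparisons, 106 kept their direction and call under every alternative and 90 lost the call or turned in at least 1. Quantile normalization gave 11 members called at BKM120 IC50, 20 at BKM120 IC90 (max), 12 at GDC0941 IC90 and 2 between BKM120 and GDC0941 at IC50. The member medians under it were -0.041 at BKM120 IC30, -0.22 at BKM120 IC90 (max), -0.18 at BEZ235 IC50 and -0.017 at GDC0941 IC50. The median at BKM120 IC90 (max) was -0.18 with no filter, -0.14 with the 60th percentile filter and -0.15 with the mean over probe sets. It was -0.21 over 30 members when cross-hybridising designs stood only for genes with no other probe set. With that choice the median was -0.087 at BEZ235 max. The mean over probe sets gave a median of -0.017 at BKM120 IC30 and 11 calls at GDC0941 IC90 (all genes 3103). Between BKM120 and GDC0941 at IC50, 0 members were called with the 60th percentile filter, 6 without the degraded array and 7 in a fit of the 2 groups alone. Such fits called 6 at BEZ235 IC50 (all genes 2242) and 5 between max and IC50 of BEZ235. At IC50 they called 1 between BKM120 and BEZ235 (all genes 827) and 3 between BEZ235 and GDC0941 (1006). The causes were not tested.

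Leaving out 1 array at a time gave 2 to 4 calls at GDC0941 IC50, 0 to 1 between BKM120 and GDC0941 at IC50, and 6 to 10 between BKM120 and BEZ235 at IC90. The medians ran from -0.028 to 0.040 at BKM120 IC30, -0.19 to -0.14 at BKM120 IC90 (max), -0.15 to -0.075 at BEZ235 max and -0.014 to 0.058 at GDC0941 IC50.

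Directions turned under quantile normalization for LDHA at BKM120 IC30 (-0.080), LDHB at BKM120 IC90 (max) (-0.056), ALDOA, GAPDH, LDHA and LDHB at BEZ235 IC50 (-0.12, -0.082, -0.19 and -0.045), and GAPDH and LDHB at BEZ235 IC90 (-0.091 and -0.061) and max (-0.071 and -0.061). They also turned for HIF1A, LDHA, LDHB and PKM between BKM120 and BEZ235 at IC50 (0.17, 0.12, 0.027 and 0.084), and for ALDOA, LDHA and LDHB between BEZ235 and GDC0941 at IC50 (-0.10, -0.15 and -0.040). Without cross-hybridising designs TPI1 turned between BKM120 and BEZ235 at IC90 (-0.24), and between the highest and lowest level of BEZ235 (0.17) and GDC0941 (0.025).

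With the mean over probe sets HK2 turned at BKM120 IC30 and IC50 (0.10 and 0.042), the levels of BEZ235 (0.36, 0.33 and 0.22), and IC90 and max of GDC0941 (0.25 and 0.28). It also turned at IC50 between BKM120 and BEZ235 (-0.32) and between BEZ235 and GDC0941 (0.21), and between max and IC50 of GDC0941 (0.13). PKM turned at BKM120 IC90 (max) (0.56), between BKM120 and GDC0941 at IC90 (0.89), and between the highest and lowest level of BKM120 (0.79) and BEZ235 (0.027). EGLN1 turned at the levels of BEZ235 (-0.046, -0.12 and -0.16), at GDC0941 max (-0.20), between BEZ235 and GDC0941 at IC50 (-0.0027) and between max and IC50 of GDC0941 (-0.16). ENO1 turned at BEZ235 IC50 (-0.25), between BEZ235 and GDC0941 at IC50 (-0.29) and between max and IC50 of BEZ235 (0.10). Leaving out the degraded array turned SLC2A1 between BEZ235 and GDC0941 at IC50 (-0.21), and without each of the other arrays in turn the value ran from 0.034 to 0.16.

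Arrays of the same replicate number did not deviate together (median correlation -0.02, from -0.32 to 0.31 over 180 pairs). A replicate block in the fit ended 4 member calls, among them BNIP3 at GDC0941 IC50 (adjusted p = 0.0542) and ANKRD37 at GDC0941 max (adjusted p = 0.0572), and gave 4 calls at GDC0941 IC50 and 14 at GDC0941 max.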
